A study of Homo sapiens with 2 samples.

Results

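The genes described here were 49 named genes of the interferon and RNA-sensing system, the DNA sensor IFI16 among them, out of the 54261 genes listed in the count table. They were chosen by name. All 49 were found in the table by their symbols, and 35 of them had a mean of at least 1 CPM (counts scaled to a common library size) over the 2 libraries, as had 12620 genes in all. Of the others, 9 had counts below that level, and OASL, XAF1, TAP1, PSMB8 and PSMB9 had none in either library. RKO is a human colon carcinoma cell line, bought from a cell collection. The same line received either a control duplex (si-NC) or a duplex directed at SRSF2 (si-SRSF2), a serine/arginine-rich protein that binds exons and takes part in the choice of splice sites. RNA was taken 2 days later. Poly(A) RNA was made into strand-specific libraries and read as 150 bp pairs, with 1 library per group, so that differences have no replicate check and no p-value is given. The RNA strands the study lists for the 2 duplexes are shown to identify the treatments, with no capitals set apart.
siNC: UUCUUCGAACGUGUCACGUTT
si-SRSF2: UCCAAAUCCAGGUCGCGAUTT

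Cells recognise foreign nucleic acid with sensors such as RIG-I and MDA5 for RNA and cGAS and IFI16 for DNA. The sensors act through adaptors (MAVS, STING) and the kinase TBK1 on the factors IRF3 and IRF7, which switch on interferon genes. Secreted interferon binds its receptor, the kinases JAK1 and TYK2 phosphorylate factors such as STAT2, and a complex of STAT2 with IRF9 binds interferon-stimulated response elements (ISREs) in the promoters of the genes that respond, most of which encode antiviral proteins.

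The libraries held 19931360 (si-NC) and 14512802 (si-SRSF2) counts. A gene with no count can still have a level of up to 3 counts, or 0.151 and 0.207 CPM. SRSF2 itself stood at 49.9% of its si-NC level in the si-SRSF2 library. Of the epithelial markers EPCAM, KRT8, KRT18 and CDX2 had 147 to 632 counts in each library, while KRT19, CDH1, VIL1 and KRT20, which many colon lines express, had at most 10. Leukocyte, fibroblast and endothelial markers had at most 13 counts each, except for CD68, a lysosomal protein gene that is also used as a macrophage marker, which had 15206 and 14256. Where a pair of counts or CPM values is given for a gene, the control library comes first and the si-SRSF2 library second. CPM values were scaled with edgeR's TMM factors. The log2 ratio sets si-SRSF2 over si-NC after 0.5 CPM was added to each level, and it is followed in brackets by a 95% Clopper-Pearson interval that covers counting error only and not the variation between transfections. In bulk RNA, fewer cells with a transcript and less of it per cell cannot be told apart.

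The 49 genes did not move as one block in the si-SRSF2 library. Of the 35 compared, 25 were lower and 10 higher than in si-NC, a share of 71.4% lower against 53.8% of all genes compared. Only ISG20, a 3′ to 5′ exonuclease that degrades viral RNA, was at least 1.5-fold lower, which made 2.86% of the 35 against a background of 3.52%. None was at least 1.5-fold higher, against a background of 4.18%, and none was at least 2-fold lower, against 0.499%. The median log2 ratio was -0.15, with -0.32 and 0.15 as the medians of the lower and upper interval bounds, beside -0.02 over all genes compared. The ratios ran from -0.65 for ISG20 to 0.54 for IFI16. The interval lay wholly below 0 for 13 of the 35 (37.1%, background 26.7%), wholly above 0 for 7 (background 21.0%) and across 0 for 15. Summed over all 49 genes the levels were 2223 and 2213 CPM, and without IFI16 the sums were 2092 and 2022 CPM.

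**Figure D1:**
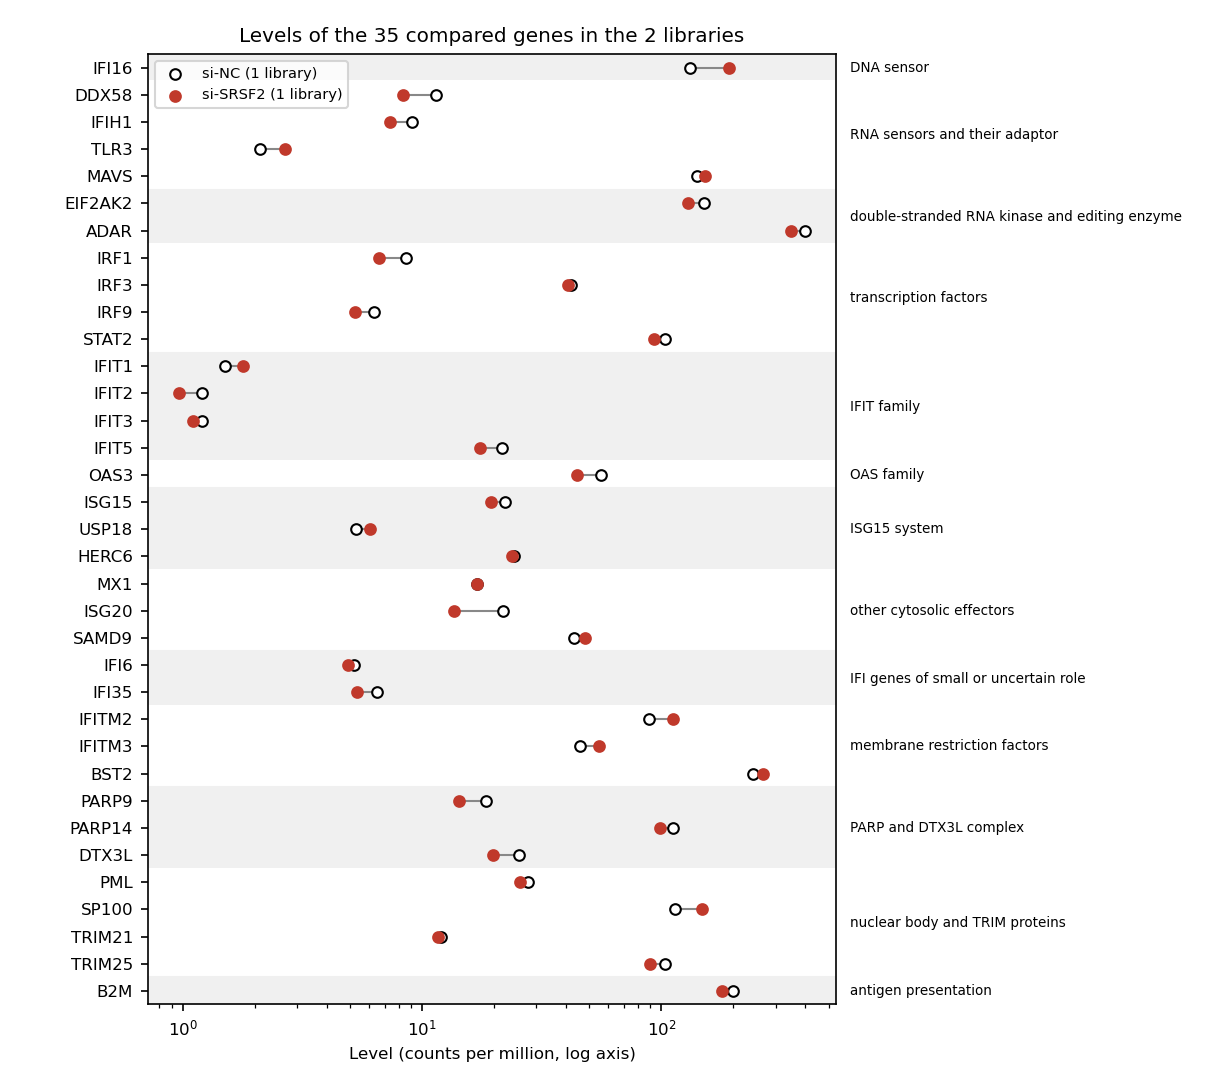
Level of each of the 35 compared genes in CPM on a log axis, grouped by role, with an open circle for the si-NC library and a filled circle for the si-SRSF2 library (1 library per group, no error bars). The circles of most genes lie close together, and ISG20 (21.7 and 13.6 CPM) and IFI16 (131 and 191 CPM) are among the wider pairs.

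IFI16 encodes a nuclear protein with a pyrin domain and a pair of HIN domains that bind DNA. The gene (ENSG00000163565) occupies 158999968 to 159055155 of chromosome 1 (GRCh38, plus strand). It had 2614 counts in the control and 2771 in the shallower knockdown library, or 131 and 191 CPM, a log2 ratio of 0.54 (0.46 to 0.62) or a 1.45-fold higher level. It had the highest ratio of the 35 genes, and 623 of the 12620 genes compared had a higher one. Per kb of transcript it stood at 45.5 and 66.2 CPM, so that it passed ADAR, which had 60.3 and 52.8 CPM per kb. The other HIN-200 genes, AIM2, MNDA and PYHIN1, had no count in either library.

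The study's splicing list names an exon of IFI16 on chromosome 1 from 159049432 to 159049599. In GENCODE 44 this is exon 9 of the 12 exons of the canonical transcript, 168 bp long, a multiple of 3, with 48.2% G and C. Of the 10 coding transcripts of the gene 5 span this position, and 3 of those hold the exon. The sequence is shown because the exon has a copy within the gene. Exon 8, on chromosome 1 from 159045297 to 159045464, has the same sequence in 168 of 168 bases. The identity goes on for 254 bases before the exon and 33 after it, an exact run of 455 bp at a distance of 4135 bp, which is longer than a 150 bp read. Exon 7 (159032524 to 159032691) also has 168 bases and shares 115 of them (68.5%) at the same positions without gaps. Capitals in exon 7 mark the 53 bases that differ from exon 9.
exon 9 and exon 8 (chr1:159049432-159049599 and chr1:159045297-159045464, plus strand): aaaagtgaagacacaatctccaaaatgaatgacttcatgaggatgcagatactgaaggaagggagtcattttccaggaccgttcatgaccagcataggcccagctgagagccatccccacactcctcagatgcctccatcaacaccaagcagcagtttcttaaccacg
exon 7 (chr1:159032524-159032691, plus strand): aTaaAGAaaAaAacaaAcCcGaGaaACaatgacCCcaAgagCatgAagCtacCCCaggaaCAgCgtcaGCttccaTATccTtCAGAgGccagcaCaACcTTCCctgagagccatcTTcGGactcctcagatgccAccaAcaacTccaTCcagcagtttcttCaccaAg

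Exon 4 has 168 bases as well and shares 87 of them (51.8%). Of the 31-base words of this transcript, 9.74% occur more than once in it. A read that lies within the exact run fits both places within IFI16. It still belongs to the same gene, but whether a counter or aligner keeps it depends on how reads with more than 1 place were treated, which is not given in the sources used here. Only the gene's total was measured here, so how much of the higher IFI16 count comes from which transcript was not tested.

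The RNA sensors stood at low levels. DDX58 encodes RIG-I, which binds RNA with a 5′ triphosphate, and it had 229 and 121 counts, or 11.5 and 8.34 CPM, with a log2 ratio of -0.44 (-0.79 to -0.14), the lowest of the 35 after ISG20. IFIH1 encodes MDA5, which binds long RNA duplexes, and it had 181 and 107 counts, with a ratio of -0.28 (-0.66 to 0.05). TLR3, the endosomal receptor for RNA duplexes, had 42 and 39 counts and a ratio of 0.29 (-0.32 to 1.01). The interval lay below 0 for DDX58 and across 0 for the other two. DHX58, which encodes the regulator LGP2, had 5 counts in each library, too few to compare. MAVS, the mitochondrial adaptor of RIG-I and MDA5, was at a higher level than its sensors, with 11.98 CPM per kb in si-NC against 2.48 for DDX58 and 2.54 for IFIH1. It had 2801 and 2211 counts, or 141 and 152 CPM, and a ratio of 0.12 (0.04 to 0.20).

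Both enzymes that bind RNA duplexes in the cytosol and nucleus were abundant and slightly lower in si-SRSF2. EIF2AK2 encodes PKR, the kinase that stops translation when it binds such RNA. It had 3014 and 1872 counts, or 151 and 129 CPM, with a log2 ratio of -0.23 (-0.31 to -0.15). ADAR encodes the enzyme that edits adenosine to inosine in RNA duplexes and keeps them from being sensed. It had 7945 and 5066 counts, the most of all 49 genes, or 399 and 349 CPM, with a ratio of -0.19 (-0.24 to -0.14). The narrow intervals of this pair reflect their depth, and neither difference reached 1.5-fold.

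Among the transcription factors STAT2, part of the ISRE-binding complex, had 2060 and 1352 counts, or 103 and 93.2 CPM, with a log2 ratio of -0.15 (-0.25 to -0.05). IRF1, which drives many interferon genes by itself, had 171 and 96 counts and a ratio of -0.35 (-0.75 to -0.01). IRF9, the DNA-binding member of the complex, had 125 and 76 counts and a ratio of -0.24 (-0.69 to 0.16). IRF3, which is present before any stimulus and is activated by TBK1, had 836 and 589 counts and a ratio of -0.05 (-0.20 to 0.11). All 4 point estimates were thus below 0, and only those of STAT2 and IRF1 had intervals that stayed there. For IRF1, 13.5% of the transcript's 31-base words occur in other counted genes. IRF7, which amplifies interferon production, had 2 and 4 counts, and 84.0% of its words also occur on an alternate-locus scaffold of the reference.

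**Figure D2:**
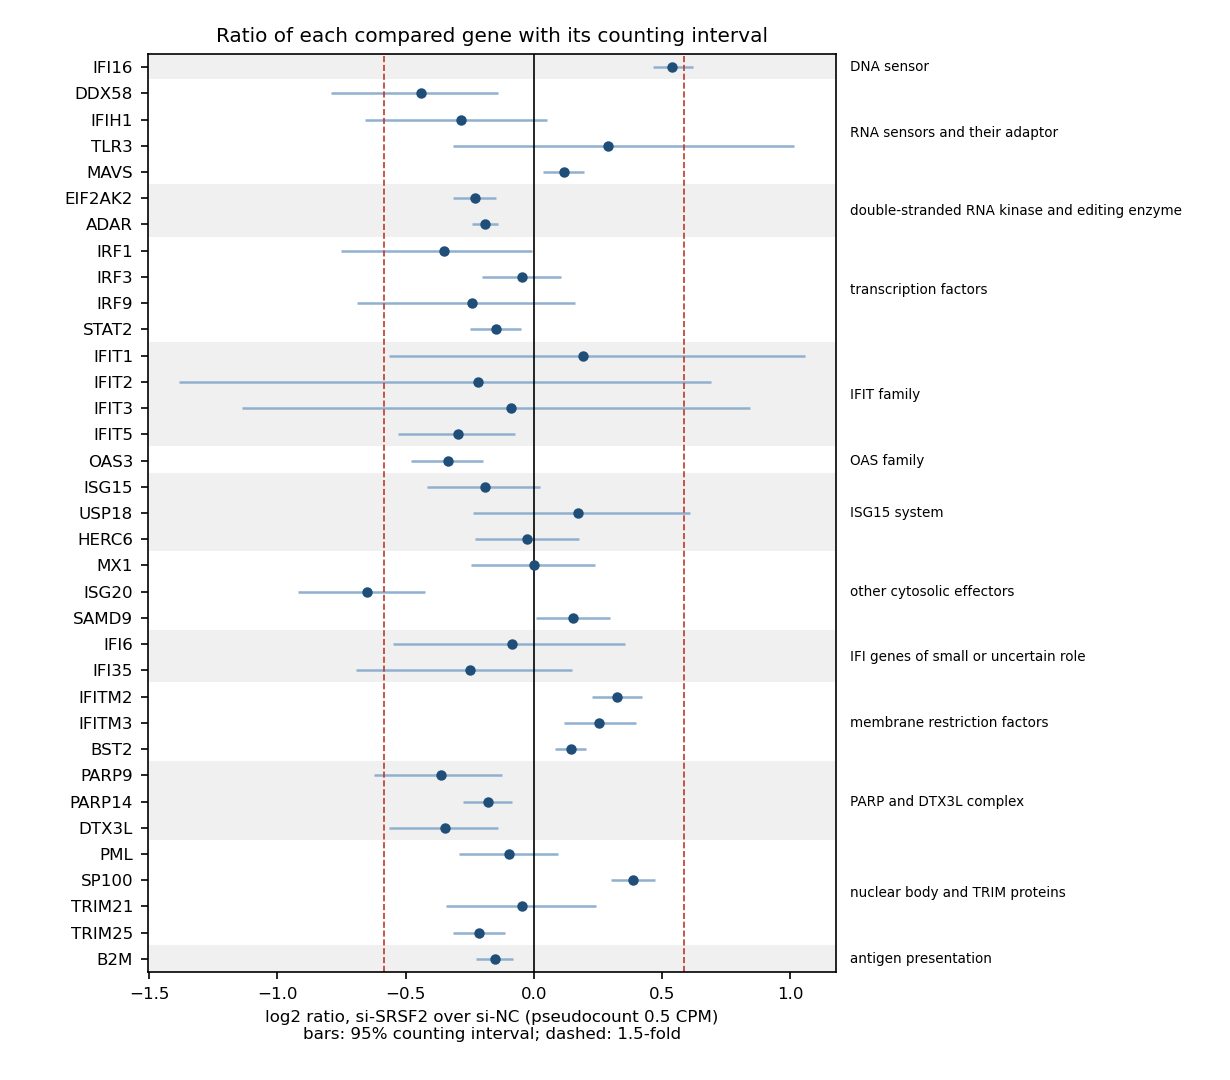
Log2 ratio (si-SRSF2 over si-NC) for each of the 35 compared genes, grouped by role, with 0.5 CPM added to both levels. The bars are 95% Clopper-Pearson intervals of counting error, the dashed lines mark 1.5-fold, and only the point of ISG20 (-0.65) lies beyond either of them.

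Promoter sequence was used to see how far these genes share the response element. The windows were those of RefSeq on GRCh38.p14, from 250 bases before to 50 after each start. The ISRE core was searched on both strands as GAAA, any 2 bases and GAAA again, which reads TTTC, any 2 bases and TTTC on the other strand, and the gamma-activated sequence, the element of the response to interferon gamma, as TTCNNNGAA, which reads the same on both strands. Of the 49 genes 40 had a window in the table, and 26 of those (65.0%) held the ISRE core, against 4.38% of the 27305 genes with a window. Counted by window it was 30 of 53 (56.6%) against 3.57% of 35116. The gamma-activated sequence was in 12 of the 40 genes, against 9.38% of all. The windows below are those of compared genes whose match lies upstream of the start in a stretch free of annotated exons, and they are shown to let the shared letters be seen. Each line gives up to 20 bases on either side of 1 match, the nearest to the start among those that meet both conditions, on the strand of the gene, with the 10 bases of the match in capitals.
IFIH1 (chr2:162318685-162318725, minus strand): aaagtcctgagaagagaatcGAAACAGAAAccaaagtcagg
IFIT1 (chr10:89392487-89392536, plus strand): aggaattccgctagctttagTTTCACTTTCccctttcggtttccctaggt
IFIT3 (chr10:89332415-89332464, plus strand): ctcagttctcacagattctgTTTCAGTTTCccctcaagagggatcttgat
ISG15 (chr1:1013370-1013419, plus strand): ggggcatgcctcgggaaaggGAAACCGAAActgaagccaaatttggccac
MX1 (chr21:41431834-41431883, plus strand): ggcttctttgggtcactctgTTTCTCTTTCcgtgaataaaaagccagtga
SAMD9 (chr7:93118086-93118135, minus strand): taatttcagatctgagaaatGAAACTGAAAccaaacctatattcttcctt
IFI6 (chr1:27672256-27672305, minus strand): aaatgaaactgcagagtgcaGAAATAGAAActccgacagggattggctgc
IFITM3 (chr11:320866-320915, minus strand): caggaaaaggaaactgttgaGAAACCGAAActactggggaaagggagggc
PARP14 (chr3:122680790-122680838, plus strand): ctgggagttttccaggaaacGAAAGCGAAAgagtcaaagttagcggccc

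The match shown began 21 bases before the start in IFIH1, 29 in PARP14, 35 in IFITM3 and between 93 and 196 in the other 6. The 19 compared genes with an ISRE core had a median log2 ratio of -0.15, with 14 of them lower, and the 11 compared genes with a window but no core had -0.19, with 8 lower. Beyond these lists, 331 compared genes that are not among the 49 held the core in a window, and they had a median of 0.01, with 47.7% lower. The 8617 compared genes with a window under the same symbol but no core had a median of -0.03, with 55.6% lower. They include the 11 above except DDX58, whose window is listed under another symbol. The windows of IFI16 and DDX58 held no match, while that of ISG20 held one. A match is a description of letters and no measure of binding.

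The classical responders, whose levels are often very low in cells without interferon, were low here too. IFIT1, which binds RNA that lacks methylation at its cap, had 30 and 26 counts and a log2 ratio of 0.19 (-0.56 to 1.06). IFIT2 had 24 and 14 counts, with a ratio of -0.22, and IFIT3, which stabilises IFIT1, had 24 and 16, with a ratio of -0.09. At these depths the intervals of all 3 spanned 0 and reached past 1.5-fold in at least 1 direction. IFIT5, a relative that binds RNA with a 5′ phosphate, was better measured, with 430 and 254 counts, or 21.6 and 17.5 CPM. Its ratio was -0.29 (-0.53 to -0.07).

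The OAS enzymes make short 2′-5′ adenylate chains when they bind RNA duplexes. OAS3 was the only one at a level that could be compared, with 1120 and 645 counts, or 56.2 and 44.4 CPM, and a log2 ratio of -0.34 (-0.48 to -0.20). OAS1 had 4 counts and 0, OAS2 had 6 and 4, and OASL had 0 in both. OAS1, OAS2 and OAS3 lie side by side on chromosome 12, and the sum of counts in this cluster was thus almost all OAS3.

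In the ISG15 system, ISG15 is a ubiquitin-like protein that is attached to others during the response. It had 442 and 281 counts, or 22.2 and 19.4 CPM, with a log2 ratio of -0.19 (-0.42 to 0.02). USP18, the protease that removes it and also damps receptor signalling, had 106 and 88 counts and a ratio of 0.17 (-0.24 to 0.61), and 33.0% of its 31-base words occur in other counted genes, chiefly USP41, so reads could be split between the copies. HERC6, a ligase of the same family as HERC5, had 481 and 344 counts and a ratio of -0.03 (-0.23 to 0.18). HERC5, the main ISG15 ligase of human cells, had 9 and 13 counts. No interval of this group excluded 0.

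Of the other cytosolic effectors, MX1, a dynamin-like GTPase against influenza virus, had 338 and 246 counts, or 17.0 and 16.9 CPM, and a log2 ratio of 0.00 (-0.24 to 0.24). ISG20 had 433 and 198 counts, or 21.7 and 13.6 CPM, with a ratio of -0.65 (-0.92 to -0.43), and 311 of all genes compared had a lower one. Its interval lay wholly below 0 but crossed the line of 1.5-fold. SAMD9, a factor that restricts poxviruses, had 861 and 697 counts, or 43.2 and 48.0 CPM, and a ratio of 0.15 (0.01 to 0.30). XAF1, which binds the caspase inhibitor XIAP, had no count in either library. The effectors thus differed, with ISG20 lower, MX1 at nearly the same level and SAMD9 slightly higher.

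**Figure D3:**
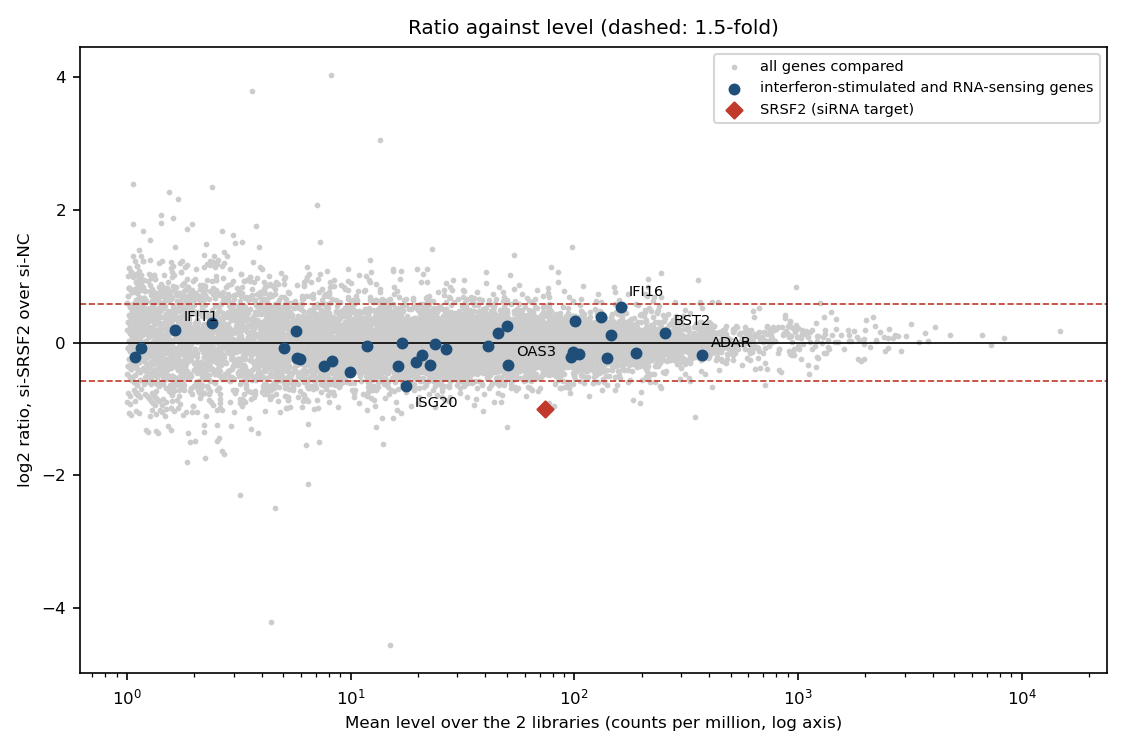
Log2 ratio (si-SRSF2 over si-NC) against the mean level of the 2 libraries in CPM on a log axis, with all 12620 genes compared in grey, the 35 interferon-stimulated and RNA-sensing genes in blue and SRSF2 as a red diamond. The 35 genes lie within the cloud of all genes, from -0.65 (ISG20) to 0.54 (IFI16), and SRSF2 lies below the dashed line of 1.5-fold.

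The small interferon-induced proteins were sparse. IFI6, a mitochondrial and endoplasmic reticulum protein, had 104 and 71 counts, with a log2 ratio of -0.08 (-0.55 to 0.36). IFI35 had 129 and 78 counts, with a ratio of -0.25 (-0.69 to 0.15). IFI27 had 13 and 2 counts, IFI44 had 9 and 7, and IFI44L had 1 and 0, all under the minimum level. Of the words of IFI27, 83.6% also occur on an alternate-locus scaffold of the reference. IFI27, IFI44 and IFI44L are usually among the most inducible genes of the response.

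The membrane restriction factors were on the other side. IFITM2, which keeps virus envelopes from fusing in endosomes, had 1774 and 1619 counts, or 89.0 and 112 CPM, with a log2 ratio of 0.32 (0.23 to 0.42). Its neighbour IFITM3 had 913 and 795 counts, or 45.8 and 54.8 CPM, with a ratio of 0.26 (0.12 to 0.40). BST2, or tetherin, which holds budding virus at the cell surface, had 4816 and 3875 counts, or 242 and 267 CPM, with a ratio of 0.14 (0.08 to 0.21). All 3 intervals lay above 0, and none of the 3 reached 1.5-fold. IFITM1 had 14 and 11 counts. The IFITM genes are near copies, with 21.3% of the words of IFITM1, 11.9% of IFITM2 and 39.8% of IFITM3 found in other counted genes, so their counts are uncertain one by one. Per kb of transcript BST2 had the highest level of the 35 genes in si-NC, with 241 CPM, ahead of B2M with 211, IFITM2 with 88.5 and IFITM3 with 75.0. The lowest were IFIT3 (0.504), IFIT2 (0.355), TLR3 and IFIT1 (both 0.350). At 24 to 42 counts these last 4 cannot be ordered among themselves.

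PARP9 and the ubiquitin ligase DTX3L form a complex that acts in the response and in DNA repair, and they start head to head on chromosome 3, where their annotations overlap from 122564338 to 122564577. PARP9 had 368 and 207 counts, with a log2 ratio of -0.36 (-0.63 to -0.12). DTX3L had 505 and 288 counts, or 25.3 and 19.8 CPM, with a ratio of -0.35 (-0.57 to -0.14). PARP14, a larger mono-ADP-ribosyltransferase on the same chromosome, had 2231 and 1433 counts, or 112 and 98.7 CPM, with a ratio of -0.18 (-0.28 to -0.08). All 3 stood lower, with intervals below 0. Reads from the stretch that PARP9 and DTX3L share can be told apart only with strand, and whether the counting used strand is not given in the sources used here. Of the 49 genes, 26 overlap an annotated gene on the other strand, and the same limit holds for them.

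The genes of the nuclear body proteins PML and SP100 differed in their ratios. SP100, whose protein is a core part of PML bodies, had 2262 and 2156 counts, or 113 and 149 CPM, with a log2 ratio of 0.39 (0.30 to 0.47), the highest of the 35 after IFI16. PML, the scaffold of the same bodies, had 550 and 374 counts and a ratio of -0.10 (-0.29 to 0.09). The intervals of the pair did not overlap. TRIM25, the ligase that activates RIG-I with ubiquitin chains, had 2066 and 1297 counts, or 104 and 89.4 CPM, with a ratio of -0.21 (-0.32 to -0.11). TRIM21, a cytosolic receptor for antibody, had 240 and 169 counts and a ratio of -0.05 (-0.34 to 0.24).

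Of the antigen presentation genes only B2M, the invariant light chain of MHC class I, had counts. It had 3970 and 2602, or 199 and 179 CPM, with a log2 ratio of -0.15 (-0.22 to -0.08). TAP1, which carries peptides into the endoplasmic reticulum, and PSMB8 and PSMB9, immunoproteasome subunits, had 0 in both libraries. These 3 lie together on chromosome 6 from 32840717 to 32859851, and 85.8% to 89.9% of their 31-base words also occur on alternate-locus scaffolds. In the region around them, from HLA-F to TAPBP (29723434 to 33314078), 112 of 131 protein-coding genes (85.5%) had 0 in both libraries. The share was 27.3% of the 776 on the rest of the chromosome. It was 25.8% of all 18152 outside the region, those 776 included. Genes used in nearly every cell, TUBB, BAG6, DDX39B and ABCF1, named after their values were seen, were among those listed at 0. The 0 of TAP1, PSMB8 and PSMB9 is therefore what the table lists and no measure of their expression. B2M has 87.5% of its words on such a scaffold as well and was well counted, so a copy there did not always go with a count of 0.

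The other genes of the pathway came from a list of 94, of which 63 could be compared. Of these 41 were lower (65.1%) and 22 higher, with a median log2 ratio of -0.09. At least 1.5-fold lower were 4 (6.35%, background 3.52%) and at least 1.5-fold higher none (background 4.18%). Those named here were SOCS1, which inhibits JAK kinases (36 and 11 counts, -0.87, -2.38 to -0.25), the GTPase gene GBP2 (151 and 59, -0.82) and the antiviral tudor domain gene TDRD7 (1340 and 608, -0.68, -0.82 to -0.54).

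None of the 8 interferon genes looked up had more than 3 counts in a library. IFNB1, IFNA1, IFNK, IFNG, IFNL1, IFNL2 and IFNL3 had 0 counts in both libraries, which allows levels of up to 0.151 and 0.207 CPM, and IFNE had 3 counts in each. Of the words of IFNA1, IFNL2 and IFNL3, 51.3% to 60.8% occur in other counted genes, so their 0 is uncertain. The receptor chains were present. IFNAR2, the chain that binds type I interferon most tightly, had 905 and 475 counts, with a log2 ratio of -0.47 (-0.64 to -0.31), and IFNLR1, the specific chain of the lambda receptor, had 324 and 175, with -0.42. Ratios for IFNAR1 (-0.13), IL10RB (-0.07), IFNGR2 (-0.04) and IFNGR1 (0.01) were nearer to 0. Downstream, TYK2 had 3058 and 1815 counts (-0.29) and JAK1 had 4928 and 3056 (-0.23). The kinase TBK1 had 1727 and 1091 counts (-0.20) and the DNA sensor CGAS, listed as MB21D1, had 677 and 426 (-0.21). STING1, the adaptor of CGAS, listed as TMEM173, had 0 in both.

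**Figure D4:**
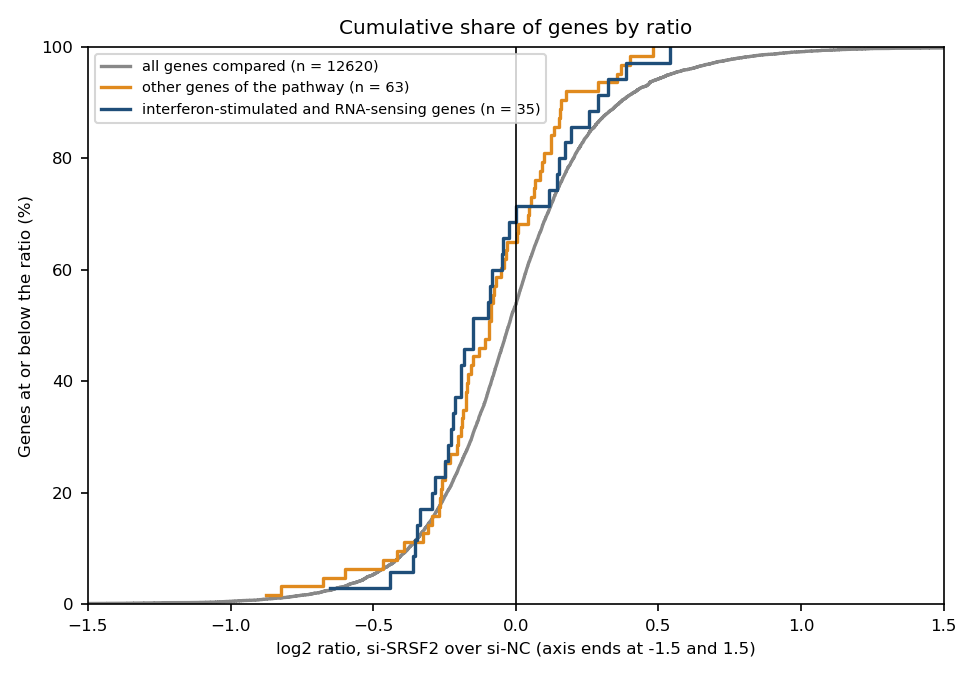
Cumulative share of genes, in percent, at or below each log2 ratio (si-SRSF2 over si-NC), for all 12620 genes compared, the other 63 genes of the pathway and the 35 interferon-stimulated and RNA-sensing genes. At a ratio of 0 the curves stand at 53.8%, 65.1% and 71.4%.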

How the data were processed

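Poly(A) RNA of RKO cells was taken 2 days after transfection, with 1 library per group. The authors aligned the reads to GRCh38 with HISAT2 2.0.4 (version per the labels) and used HTSeq to count them per gene. They deposited these raw counts with no scaling. Library sizes were scaled with edgeR 4.0.16 (TMM, R 4.3.3) on the whole table. Log2 ratios used a pseudocount of 0.5 CPM and a filter of 1 CPM on the mean, which loses low genes. Called meant 1.5-fold by point estimate. Intervals at 95% were computed in SciPy 1.17.1, and no test was run. The total per library, given in the report, sets their width.

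The members and lists were chosen with earlier results of these data known. All 49 genes were reported, and of the other pathway genes those with set roles (receptors, JAK1, TYK2, TBK1, CGAS, STING1) and those past 1.5-fold, with the ligands added, except for some genes whose results are not reported here. Coordinates and lengths came from GENCODE 44 on GRCh38, and promoters from RefSeq. Shared sequence was counted as 31-base words. Alternatives were scaling by total counts, by upper quartiles or by DESeq2 1.42.0, a pseudocount of 0.1 or 2 CPM, no filter, a minimum of 5 CPM, omission of mitochondrial and the top 20 genes, 2-fold, and an interval wholly beyond 1.5-fold. The calculations were tested on simulated data. Exon reads of IFI16 were not analysed here.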

Additional observations from a re-analysis of the deposited data

How the results depend on the processing

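Replicates could not be left out in turn. No paired analysis was possible because there was 1 library on either side. The log2 ratios of single genes were rerun under other scalings and pseudocounts, but not under other filters on low counts (210 values). All stayed inside their counting intervals, and all but MX1, which went from 0.00 to 0.02, stayed on their side of 0. IFI16 lay between 0.53 and 0.56 and ISG20 between -0.67 and -0.60. The median of the 35 genes was -0.12 with upper-quartile factors, which put the median of all genes at 0.00 and 50.2% of them below 0, and 24 of the 35 (68.6%) were then lower. It was -0.11 with a pseudocount of 2 CPM and -0.09 without a filter on low counts, over 44 genes of which 29 were lower. Counts past the fold moved as follows. With a pseudocount of 2 CPM 2 pathway genes, in place of 4, were at least 1.5-fold lower, while the background fell from 3.52% to 1.74%. Without a filter on low counts 2 of the 49 genes were at least 1.5-fold lower (background 3.81%), since IFI27 (13 and 2 counts) came in. In the same setting 1 pathway gene, HLA-B (1 and 5 counts), was at least 1.5-fold higher. The filter alone had kept IFI27 and HLA-B out. At 2-fold, and with the interval wholly beyond 1.5-fold, 0 of the 49 and 0 of the pathway genes were lower. The other 55 values were within 1.5 times of the reported count or inside its counting interval. Among the 35 genes, depth limits IFIT1, IFIT2, IFIT3 and TLR3 most.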

Other observations

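Within the pathway list, the other interferon-stimulated genes went both ways. Of the 24 that could be compared 14 were lower (58.3%, background 53.8%) and 10 higher, with a median log2 ratio of -0.09. The interval lay wholly below 0 for 6 (25.0%, background 26.7%) and wholly above 0 for 4 (16.7%, background 21.0%). Both of these interval shares were below background. The genes below were named after their values were seen. SAMHD1, which empties the cell of the nucleotides that reverse transcription needs, had 703 (si-NC) and 717 (si-SRSF2) counts, a log2 ratio of 0.48. ZC3HAV1, the zinc finger protein that sends CpG-rich viral RNA to decay, had 1259 and 1213 counts, a ratio of 0.40. SAMD9L, the neighbour of SAMD9, had 189 and 178 counts (0.35). On the lower side, PARP10 had 401 and 221 counts (-0.39), TRIM14 had 1839 and 1067 (-0.33) and PLSCR1 had 358 and 209 (-0.31). None of these 6 reached 1.5-fold.

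CD274, which encodes the checkpoint ligand PD-L1 and responds to interferon gamma, was at 558 CPM in si-NC, with 11127 and 6728 counts and a log2 ratio of -0.27. CXCL10, CXCL11, CCL5, ZBP1 and RTP4, which respond strongly to interferon in many cells, had 0 in both libraries. For CCL5, 93.1% of the 31-base words also occur on alternate-locus scaffolds and some in other counted genes, so its 0 is uncertain.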
